A study of Homo sapiens with 2 samples.

Results

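The clustered histone genes are the replication-dependent histone genes that the expression matrix writes with symbols of the form HIST1H to HIST4H, and all 71 such rows of the 36601 gene rows were taken as members. They comprise 6 genes of the linker histone H1, 17 of H2A, 18 of H2B, 15 of H3 and 15 of H4. The HIST1 cluster holds 55 of them, HIST2 12, HIST3 3 and HIST4 1. The rule reads the symbol alone.

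PC9 cells, an EGFR-mutant line from a human lung adenocarcinoma, received a pool of lentiviral sgRNAs (infection rate about 40%, 8 ug/ml polybrene), followed by puromycin selection (1 ug/ml). Expression and sgRNA identity were read from the same cells with a 10x Genomics 3-prime library and direct sgRNA capture, deposited as 2 samples in 1 joint matrix of unique molecular identifiers (UMIs, each standing for 1 captured molecule). The compared groups were cells assigned to sgRNAs against ATF4, CTCF, CTNNB1 and JUN (6 sgRNAs each), MYC (2) and PGAM1 (4), and cells assigned to 4 non-targeting sgRNAs. The labels speak both of knockout and of dCas9 with knockdown, name day 7 and day 8, and describe several sgRNAs per vector, so the kind of perturbation and the day are uncertain; all groups share the line, the virus and the selection.

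Of 10847 barcodes, 10142 cells were kept, with 1011 to 39824 gene UMIs each and a median of 12239.5. Epithelial keratins were abundant (KRT18 at 4435 UMIs per 1000000 gene UMIs, written CPM; EPCAM at 268 CPM), whereas 7 markers of other cell types lay between 0 CPM (COL1A2) and 19.5 CPM (CD68, a lysosomal gene), with the leukocyte gene PTPRC at 0.217 CPM. An sgRNA was assigned to 5556 cells, and 5530 cells of the 34 sgRNAs with at least 20 cells entered the comparisons of targets. The matrix holds 36 sgRNAs, and those left out were both against MYC, with 10 and 16 cells.

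Core histones H2A, H2B, H3 and H4 form the protein spool of the nucleosome, and H1 binds the linker DNA between nucleosomes. Clustered histone genes are transcribed chiefly in S phase, under the coactivator NPAT, and most of their mRNAs end in a stem-loop bound by SLBP in place of a poly(A) tail. Because a 3-prime library primes on poly(A), it reads these mRNAs incompletely, and some clustered genes, among them HIST1H2BD and HIST2H2BE, are known also to give polyadenylated transcripts. CLSPN encodes claspin, an adapter of the replication checkpoint, and RRM2 a subunit of ribonucleotide reductase, and both are high in S phase.

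Promoters of 64 members were found in RefSeq's table for GRCh38.p14, as the 300 bases from 250 before to 50 after the transcript start. Those of 5 genes that the expression results turn on are shown. The capitals mark 4 motifs searched on both strands: the octamer ATTTGCAT known from H2B promoters, the CCAAT box, the TATA box TATAAA and AAACACA, known from H1 promoters; none of these motifs lies within another. The first pair are H1 genes with high levels in cells rich in CLSPN and RRM2: HIST1H1D at chr6:26234938-26235237 (minus strand) and HIST1H1B at chr6:27867539-27867838 (minus strand). HIST2H2AC at chr1:149886668-149886967 (plus strand) is an H2A gene that was also higher there, and its window covers most of the promoter of its neighbour HIST2H2BE, which was lower. HIST1H2AC at chr6:26123922-26124221 and HIST1H2BD at chr6:26157871-26158170 (both plus strand) were lower there.
HIST1H1D: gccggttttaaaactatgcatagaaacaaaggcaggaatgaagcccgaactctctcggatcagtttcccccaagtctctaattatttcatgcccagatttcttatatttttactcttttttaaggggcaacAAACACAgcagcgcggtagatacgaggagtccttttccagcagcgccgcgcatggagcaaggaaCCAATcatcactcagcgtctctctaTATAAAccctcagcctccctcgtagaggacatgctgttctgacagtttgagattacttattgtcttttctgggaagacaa
HIST1H1B: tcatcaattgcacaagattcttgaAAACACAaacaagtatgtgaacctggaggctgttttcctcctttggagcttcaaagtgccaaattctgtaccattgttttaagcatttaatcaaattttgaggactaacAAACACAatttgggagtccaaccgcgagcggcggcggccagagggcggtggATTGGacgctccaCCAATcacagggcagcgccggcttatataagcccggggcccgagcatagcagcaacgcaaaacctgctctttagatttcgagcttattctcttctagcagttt
HIST2H2AC: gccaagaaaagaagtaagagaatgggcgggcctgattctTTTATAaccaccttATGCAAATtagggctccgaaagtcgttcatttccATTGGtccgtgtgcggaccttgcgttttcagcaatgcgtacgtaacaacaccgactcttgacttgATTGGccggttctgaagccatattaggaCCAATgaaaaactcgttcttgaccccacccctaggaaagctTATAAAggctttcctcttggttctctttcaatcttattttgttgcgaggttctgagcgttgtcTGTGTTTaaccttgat
HIST1H2AC: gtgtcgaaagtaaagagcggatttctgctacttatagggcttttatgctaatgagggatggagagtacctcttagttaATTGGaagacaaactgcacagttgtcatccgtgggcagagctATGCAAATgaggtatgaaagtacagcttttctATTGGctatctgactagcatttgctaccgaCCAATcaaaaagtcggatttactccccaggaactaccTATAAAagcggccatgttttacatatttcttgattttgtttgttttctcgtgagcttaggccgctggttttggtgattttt
HIST1H2BD: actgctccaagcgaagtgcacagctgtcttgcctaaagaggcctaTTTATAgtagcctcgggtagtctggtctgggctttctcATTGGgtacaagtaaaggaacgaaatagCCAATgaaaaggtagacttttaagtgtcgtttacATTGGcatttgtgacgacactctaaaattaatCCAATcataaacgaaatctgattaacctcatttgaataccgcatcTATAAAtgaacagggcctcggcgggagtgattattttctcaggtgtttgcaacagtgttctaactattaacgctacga

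The octamer lay in 40.6% of the 64 member promoters, against 1.80% of all 27305 promoters in the table. It was found in 11 of 14 H2A and 14 of 18 H2B promoters and in 0 of 6 H1 and 0 of 13 H4 promoters. AAACACA lay in 6 of 6 H1 promoters and in 14.1% of member promoters, against 5.76% of all promoters. CCAAT was in 84.4% of member promoters, with H4 at 3 of 13, against 35.7% of all, and TATAAA in 65.6%, against 12.0% of all. These matches describe letters in the windows. The octamer occurred in 9 of 17 member promoters whose genes were at least 1.5-fold higher in the CLSPN and RRM2 high cells described further on, and in 3 of 6 of those at least 1.5-fold lower.

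The 3-prime library captured 62 of the 71 members (87.3%, against 65.0% of all genes), but most of them at very low level. Together they held 56170 UMIs, or 420 CPM, which is 0.0420% of gene UMIs. At or above 5 CPM stood 8 members (11.3%, against 26.9% of all genes), and these 8 held 90.9% of the member UMIs. A further 19 members had at least 100 but under 1000 UMIs, 28 had 10 to 99 and 7 had 1 to 9. No UMI was seen for HIST1H2AA, HIST1H2BA, HIST1H3F, HIST1H4F, HIST1H4G, HIST1H4K, HIST2H3A, HIST2H3C and HIST3H3, which allows a level of up to 0.0224 CPM each, from counting error alone.

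H4 transcripts made up 49.9% of member UMIs, and 97.5% of these came from 1 gene, HIST1H4C (chromosome 6, 26103933 to 26104337, GRCh38.p14), at 204 CPM with a UMI in 61.6% of cells. Linker H1 came next with 24.8% of member UMIs, spread over HIST1H1C (chromosome 6, 26055740 to 26056470) at 38.9 CPM, HIST1H1D (chromosome 6, 26234212 to 26234987) at 38.8 CPM, HIST1H1E (chromosome 6, 26156329 to 26157115) at 17.3 CPM and HIST1H1B (chromosome 6, 27866792 to 27867588) at 9.22 CPM. H2A held 19.7%, led by HIST3H2A (chromosome 1, 228457364 to 228457873) at 36.7 CPM, HIST2H2AC (chromosome 1, 149886918 to 149887411) at 20.3 CPM and HIST1H2AC (chromosome 6, 26124172 to 26124690) at 16.3 CPM. H2B held 4.17%, led by HIST1H2BD (chromosome 6, 26158121 to 26171349) at 4.20 CPM, and H3 held 1.36%, led by HIST1H3B. HIST2H2AA3 and HIST2H2AA4, HIST2H4A and HIST2H4B, HIST2H3A and HIST2H3C, and HIST1H4J and HIST1H4K are near-identical copies, and their counts are uncertain.

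**Figure D1:**
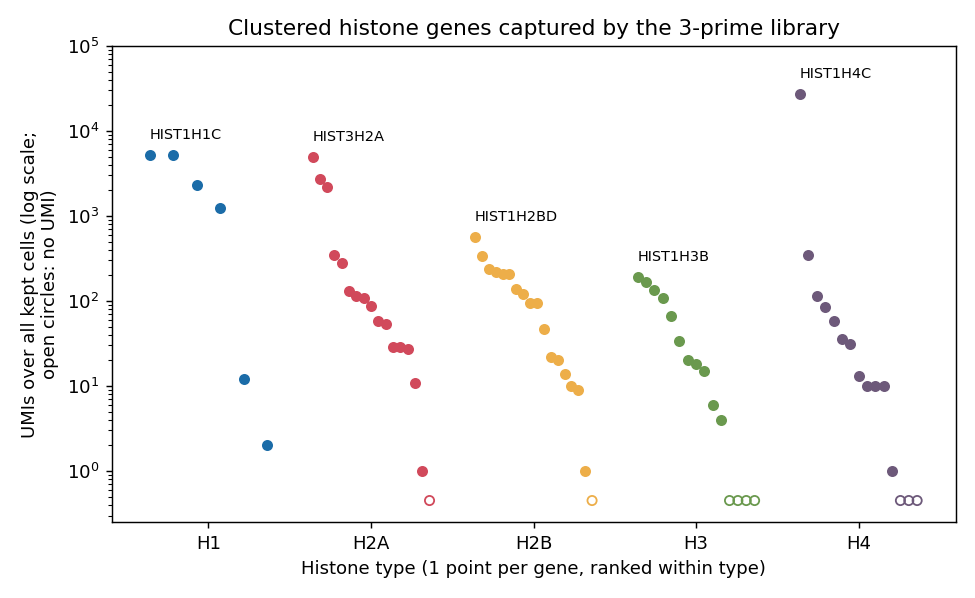
UMIs over all 10142 kept cells (log scale) for each of the 71 clustered histone genes, ranked within histone type on the horizontal axis, with open circles for genes with no UMI. HIST1H4C, with 27324 UMIs, stands above the H1 and H2A leaders, and the H2B leader HIST1H2BD has 561.

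Most replication-independent histone genes give mRNAs with poly(A) tails, and the levels of those examined ranged from above HIST1H4C to below HIST3H2A. Of 12 such genes, 3 lay above HIST1H4C, with H3F3A and H3F3B, encoding H3.3, at 1243 and 718 CPM and H2AFZ, encoding H2A.Z, at 887 CPM, each above all members combined. Between HIST3H2A and HIST1H4C lay 5, and 4 lay below HIST3H2A, with CENPA at 27.1, H2AFX at 22.5, H3F3C at 0.808 and H2AFY2 at 0.628 CPM. CPM counts molecules with no division by transcript length.

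In cells high for CLSPN and RRM2, the clustered histones were 3.36-fold more abundant than in cells low for both (95% counting interval 3.29 to 3.42), at 838 CPM in high cells and 250 CPM in low cells. Without HIST1H4C, which held most of the difference, the others summed to 380 CPM in high cells and 154 CPM in low cells, a ratio of 2.47 (2.40 to 2.54). The high class comprised 1297 cells with a UMI of both genes and a summed level in the top 25% of cells, and the low class 6649 cells with a UMI of neither. The classes are cells of 1 library, so no test applies, and intervals cover counting error only. High cells were deeper, with a median of 15493 gene UMIs against 11144 in low cells, and had a median mitochondrial share of 9.59%, against 11.0% in low cells; the part of depth and mitochondrial share in the ratios was not tested beyond these and the thinned values. With classes set after thinning each cell to 5000 UMIs, the ratio was 2.75, and with classes set by CLSPN alone it was 2.17.

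The ratio varied with histone type. H1 reached 248 CPM in high cells and 49.8 CPM in low cells, a ratio of 4.98. H4 reached 464 CPM in high cells and 101 CPM in low cells, a ratio of 4.59, and H3 reached 11.7 and 3.19 CPM, a ratio of 3.67. H2A stood at 96.7 CPM in high cells and 77.8 CPM in low cells, a ratio of 1.24, and H2B at 17.7 and 17.8 CPM, a ratio of 0.997 (0.887 to 1.12). The H2A and H2B totals each combine genes with ratios above and below 1.

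Of 32 members with at least 50 UMIs over both classes, 19 were at least 1.5-fold higher in high cells, where 9.10% of the 14517 genes compared were, and 6 were at least 1.5-fold lower, where 5.10% of genes were. The median log2 ratio of the 32 members was 1.07, against 0.036 over all genes compared. All 4 H1 genes compared, 6 of 9 H2A, 3 of 10 H2B, 4 of 5 H3 and 2 of 4 H4 genes were in the higher set. The lower set held HIST1H2AC, HIST1H2BD, HIST2H2BE, HIST1H2BG, HIST1H3E and HIST1H4H.

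HIST1H4C was the most abundant member in both classes, at 458 CPM in high cells and 96.0 CPM in low cells, a ratio of 4.78 (4.63 to 4.92). Across 34 sgRNAs its level was 312 to 874 CPM in high cells (median 465) and 56.2 to 148 CPM in low cells (median 88.3), so these ranges did not overlap. Of 785 cells with at least 10 HIST1H4C UMIs, 399 were high and 87 were low. After thinning, 81.3% of high cells and 28.5% of low cells held a HIST1H4C UMI (96.8% and 47.8% unthinned); the culture offers no cell type known to lack the gene, so the share that free RNA gives was not measured.

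HIST1H1B and HIST1H1D, both linker histone genes, had the highest ratios of the 8 members at or above 5 CPM. HIST1H1B reached 27.2 CPM in high cells and 2.67 CPM in low cells, a ratio of 10.2 (8.69 to 12.0), and was higher in the high cells of 31 of 32 sgRNAs. HIST1H1D reached 101 CPM in high cells and 14.1 CPM in low cells, a ratio of 7.17 (6.66 to 7.71). Over the 34 sgRNAs it was at 42.6 to 251 CPM in high cells (median 117) and at 3.63 to 31.8 CPM in low cells (median 14.1), with no overlap. Here too the share of all genes that do so was not determined. HIST1H1E had a ratio of 4.93 and HIST1H1C of 3.17, so all 4 linker genes compared were higher in high cells, by different factors. HIST2H2AC, an H2A gene of the HIST2 cluster, was at 40.1 CPM in high cells and 11.0 CPM in low cells, a ratio of 3.66 (3.33 to 4.03), and higher for 33 of 34 sgRNAs. Members below 5 CPM overall also had high ratios: HIST1H2AH, an H2A gene, had a ratio of 9.58 and HIST1H3B, an H3 gene, one of 6.71.

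HIST1H2AC ran the other way, at 6.62 CPM in high cells and 21.3 CPM in low cells, a ratio of 0.311 (0.260 to 0.369). Over the 34 sgRNAs it was at 0 to 21.4 CPM in high cells (median 4.96) and at 6.69 to 69.2 CPM in low cells (median 21.6); these ranges overlapped, and the high cells were lower for 33 of 34. After thinning, 3.01% of high cells and 10.6% of low cells held a UMI. HIST1H2BD, an H2B gene named here after its values were seen, stood at 1.82 CPM in high cells and 5.65 CPM in low cells, a ratio of 0.322 (0.226 to 0.447). HIST3H2A was 28.6 CPM in high cells and 40.7 CPM in low cells, a ratio of 0.701 that is short of 1.5-fold, and was lower in the high cells of 26 of 34 sgRNAs. A UMI of HIST3H2A was held by 35.8% of high and 35.4% of low cells before thinning and by 12.7% of high and 18.0% of low cells after it.

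**Figure D2:**
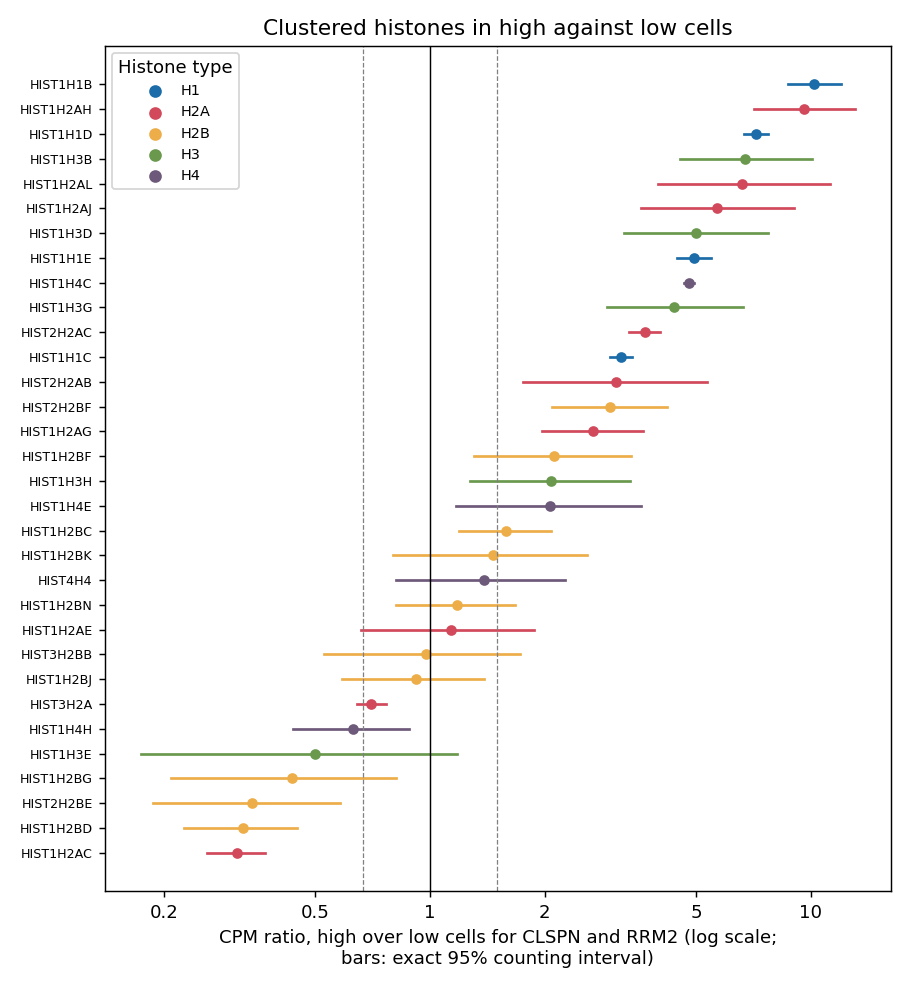
Ratio of CPM in high over low cells for CLSPN and RRM2 (log scale), for the 32 clustered histone genes with at least 50 UMIs, coloured by histone type, with exact 95% counting intervals and dashed lines at 1.5-fold either way. Ratios run from 0.311 for HIST1H2AC to 10.2 for HIST1H1B, and H2B genes lie on both sides of 1.

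In cells with a UMI of 1 of the 2 genes, each of the 8 members at or above 5 CPM lay between its levels in high and low cells. The H2B sum did not, at 14.6 CPM (12.4 to 17.1) in cells with CLSPN alone, against 17.7 CPM in high and 17.8 CPM in low cells. The H2A sum in cells with CLSPN alone was 75.4 CPM (70.3 to 80.8), against 96.7 CPM in high and 77.8 CPM in low cells. Its counting interval thus included the level of low cells. HIST1H4C was at 458 CPM in high cells, 320 CPM in cells with RRM2 alone, 247 CPM in cells with CLSPN alone and 96.0 CPM in low cells. HIST1H1D kept that order, with 101, 61.8, 47.1 and 14.1 CPM in the same classes. HIST1H2AC was at 6.62, 11.4, 8.67 and 21.3 CPM in those classes. In the 1015 cells with the most summed mitosis transcripts, HIST1H4C was at 265 CPM, HIST1H1D at 56.4 CPM and HIST1H2AC at 12.4 CPM, each between high and low cells. The H2B sum lay above both classes there, at 23.6 CPM (21.3 to 26.2). So did some members below 5 CPM, among them HIST1H2BJ at 5.48 CPM, against 1.35 CPM in high and 1.48 CPM in low cells. HIST1H2AG was at 4.65 CPM, against 3.55 CPM in high and 1.32 CPM in low cells. The high cells overlap with these 1015 mitotic cells by 101 cells. The summed mitosis list was at 1227 CPM in high cells, against 683 CPM in low cells. Without the mitotic cells the ratio of all members was 3.65.

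When cells were ordered instead by 20 DNA replication genes and split into 10 bins, an ordering added after the class results were seen, the named members separated in the same 2 directions; these 20 genes were themselves all higher in the high class, so the ordering is not independent of it. HIST1H4C stood at 57.8 CPM in the lowest bin and 463 CPM in the highest, and HIST1H1B at 0.858 and 27.9 CPM. HIST1H2AC stood at 29.4 CPM in the lowest bin and 5.08 CPM in the highest, HIST1H2BD at 7.25 and 1.34 CPM, and HIST3H2A at 43.9 and 22.0 CPM. Median depth was 10387 gene UMIs in the lowest bin and 13867.5 in the highest.

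**Figure D3:**
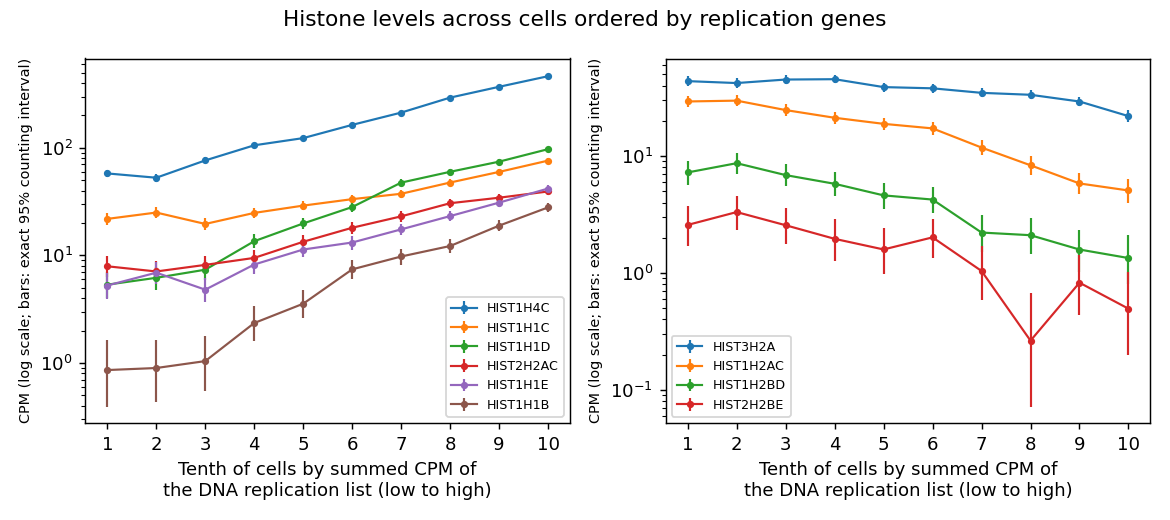
CPM (log scale) of 10 clustered histone genes in 10 bins of cells, 1015 in the lowest, ordered low to high by the summed CPM of the DNA replication list, with exact 95% counting intervals. HIST1H4C, HIST1H1D and HIST1H1B are higher in the highest bin than in the lowest, and HIST3H2A, HIST1H2AC, HIST1H2BD and HIST2H2BE are lower.

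H2A and H2B genes often start back to back, and 11 such pairs with both start sites in the promoter table had them 194 to 248 bases apart. In 5 of these pairs both genes could be compared, and partners could differ in direction; these pairs were examined after the class ratios were known. HIST2H2AC had a ratio of 3.66, whereas HIST2H2BE, 236 bases away, had one of 0.342 (0.187 to 0.580). HIST2H2AC gave 57.3 UMIs per HIST2H2BE UMI in high cells and 5.35 in low cells. HIST1H2AC and HIST1H2BC, 246 bases apart, differed the other way, with ratios of 0.311 and 1.58, and HIST1H2AC gave 1.89 UMIs per HIST1H2BC UMI in high cells and 9.63 in low cells. The ratios were 2.68 and 0.917 (0.588 to 1.39) for HIST1H2AG and HIST1H2BJ, and 1.13 (0.659 to 1.87) and 0.434 for HIST1H2AE and HIST1H2BG. They were 0.701 and 0.978 (0.526 to 1.72) for HIST3H2A and HIST3H2BB. The intervals of HIST1H2BJ, HIST1H2AE and HIST3H2BB included equal levels in high and low cells, so their direction is open. HIST1H2AH has no start site in that table, but by gene bounds it lies 248 bases from HIST1H2BK; their ratios were 9.58 (7.11 to 13.1) and 1.47 (0.799 to 2.58).

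**Figure D4:**
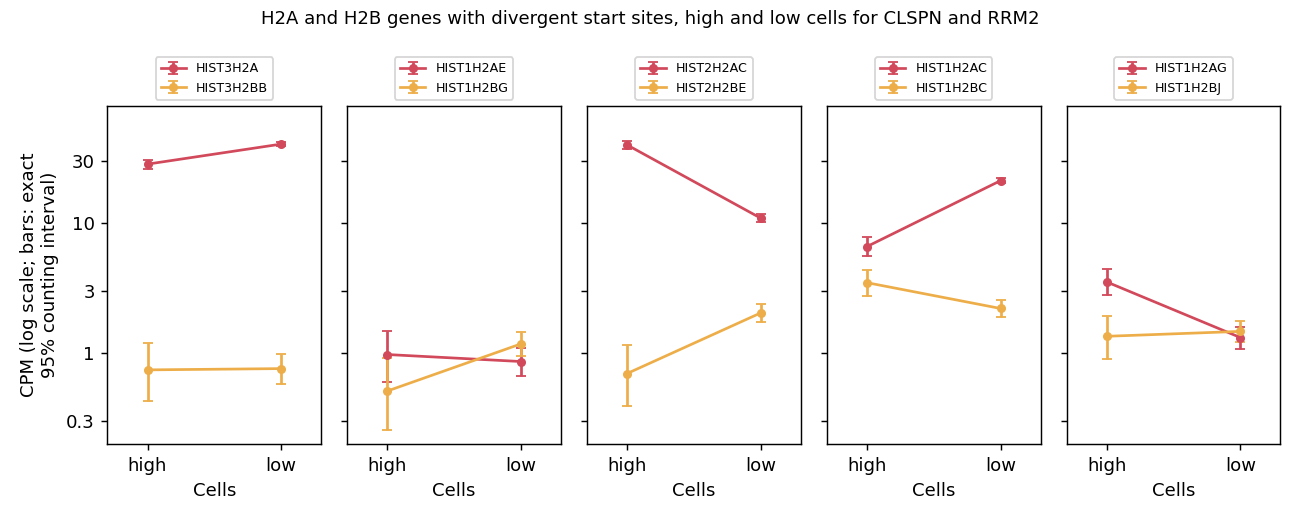
CPM (log scale) in high and low cells for the 5 divergent H2A and H2B pairs with both start sites in the promoter table and both genes compared, with exact 95% counting intervals. HIST2H2AC is higher and HIST2H2BE lower in high cells, and HIST1H2AC is lower where HIST1H2BC is higher.

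The related genes past 1.5-fold in the same comparison were all higher in high cells. Of the 14517 genes compared, 9.10% were at least 1.5-fold higher there. All 20 DNA replication genes compared were at least 1.5-fold higher in high cells, with a median log2 ratio of 2.27. Of 16 histone chaperones, which escort histones to and from DNA, 7 were higher, among them ASF1B at 34.3 CPM in high cells and 5.93 CPM in low cells and CHAF1A, of the replication-coupled assembly factor, at 36.4 and 7.36 CPM. Of 14 genes of histone transcription and 3-prime processing, 5 were higher, among them SLBP, also in the replication list, at 93.2 CPM in high cells and 45.1 CPM in low cells and NPAT at 9.66 and 4.72 CPM. Of 12 replication-independent histones, 8 were higher, including H2AFZ at 1266 CPM in high cells and 690 CPM in low cells. Of the 10 mitosis genes, 5 were higher. None of these lists held a gene at least 1.5-fold lower.

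Across the sgRNA targets, no clustered histone gene was called different from the non-targeting sgRNAs. The UMIs of each sgRNA's cells were summed and fitted with edgeR's quasi-likelihood test over 11570 genes, of which 13 were members; the other 58 were too low for the test. The sgRNAs share 1 pool and culture, so the p-values reflect the scatter among those sgRNAs and no separate cultures. PGAM1 transcript, which checks the label, fell to 73.5 ± 20.7 CPM with its 4 sgRNAs, against 208 ± 3.82 CPM with the 4 controls. ATF4 fell to 260 ± 47.0 CPM with its 6 sgRNAs, against 362 ± 15.5 CPM in controls, and CTNNB1 to 26.2 ± 8.26 CPM with its 6, against 49.6 ± 7.67 CPM in controls (SD). CTCF, JUN and MYC were not called with their own sgRNAs. MYC stood at 114 ± 39.1 CPM in the cells labelled with MYC sgRNAs (n = 2) and 69.8 ± 4.52 CPM in controls. That direction goes against the label, but the adjusted p was 0.48 in edgeR's test.

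With 0 of 13 members called in each of the 6 comparisons, the background share of genes called was 1.75% for ATF4, 0.0259% for CTCF, 0.00864% for CTNNB1, 0.00864% for JUN, 0.277% for MYC and 0.389% for PGAM1. DESeq2 also called 0 members in each. At an unadjusted p under 0.05, edgeR gave 1 member for CTCF, 1 for CTNNB1, 1 for PGAM1 and 0 for ATF4, JUN and MYC. Of all 11570 genes tested, it gave 721 for CTCF, 498 for CTNNB1 and 1009 for PGAM1. For ATF4, JUN and MYC it gave 1440, 536 and 906 genes. The members' median log2 fold change lay between -0.01 for MYC and 0.07 for PGAM1, where the median of all genes was -0.04 and 0.006. Among the related lists, H3F3A was the 1 gene called, at 1162 ± 38.5 CPM with ATF4 sgRNAs (n = 6) and 1265 ± 26.9 CPM with controls (n = 4, SD), a log2 fold change of -0.15 ± 0.041 (SE) with an adjusted p of 0.044 in edgeR's test. The other 9 replication-independent histones tested, the 14 processing genes, the 16 chaperones and the 19 replication genes held 0 calls in the 6 comparisons.

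For every target the sgRNA values of the summed members overlapped those of the controls. They averaged 447 ± 32.3 CPM with ATF4, 410 ± 38.7 with CTCF, 440 ± 22.2 with CTNNB1 and 419 ± 43.5 with JUN (SD, n = 6 each). They averaged 428 ± 41.2 CPM with PGAM1 and 410 ± 19.3 CPM with the controls (SD, n = 4 each), and the 2 MYC sgRNAs had 347 and 464 CPM. The share of cells in the high class was 12.3% for ATF4, 10.8% for CTCF, 14.1% for CTNNB1, 13.6% for JUN, 13.2% for MYC, 12.0% for PGAM1 and 11.6% for controls.

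HIST3H2A came nearest to a call. It was at 44.0, 59.5, 45.1 and 52.6 CPM with the 4 PGAM1 sgRNAs and at 36.4, 31.4, 30.3 and 37.6 CPM with the 4 control sgRNAs, so all 4 PGAM1 values lay above all 4 control values. The share of all genes that separate in this way was not determined. HIST3H2A had a log2 fold change of 0.54 ± 0.15 (SE), with an adjusted p of 0.084 in edgeR's quasi-likelihood test. Fitted with PGAM1 and control sgRNAs alone, the adjusted p was 0.037 (0.037 to 0.63 over 16 alternatives, with the log2 fold change between 0.33 and 0.63). The low class, where HIST3H2A was higher, held 65.5% of PGAM1 cells and 68.0% of control cells, and within it HIST3H2A was at 52.4 CPM for PGAM1 and 38.2 CPM for controls.

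HIST1H4C was at 204 to 231 CPM with the 6 CTNNB1 sgRNAs (median 216) and at 179 to 202 CPM with the 4 controls (median 189), and the groups did not overlap. How many of all genes separate in this way was not determined, and HIST1H4C was not called. Its log2 fold change was 0.15 ± 0.072 (SE) and the adjusted p 1.0 in edgeR's test. HIST1H2AC was at 7.77 to 17.7 CPM with the 6 CTCF sgRNAs (median 11.2) and at 15.7 to 24.1 CPM with the 4 controls. All 6 CTCF values lay below the control mean, with a log2 fold change of -0.45 ± 0.20 (SE) and an adjusted p of 0.78 in edgeR's test.

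With the 2 MYC sgRNAs, none of the 13 members was called. Some did not overlap the controls, but 2 values separate easily from 4. The share of all genes that did so was not determined, so the separation carries no weight here. HIST3H2A was at 41.1 and 45.4 CPM with MYC, against 30.3 to 37.6 CPM with the 4 controls (adjusted p 0.85 in edgeR's test). HIST2H2AC was at 26.1 and 33.0 CPM with MYC, against 15.9 to 22.6 CPM with the controls (adjusted p 0.70 in edgeR's test). HIST1H2BN rested on 3 UMIs with MYC and HIST1H4H had 0 UMIs there, against 10 and 17 in controls. HIST1H2AC was at 44.8 and 20.6 CPM with MYC, against 15.7 to 24.1 CPM in controls, and overlapped them.

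**Figure D5:**
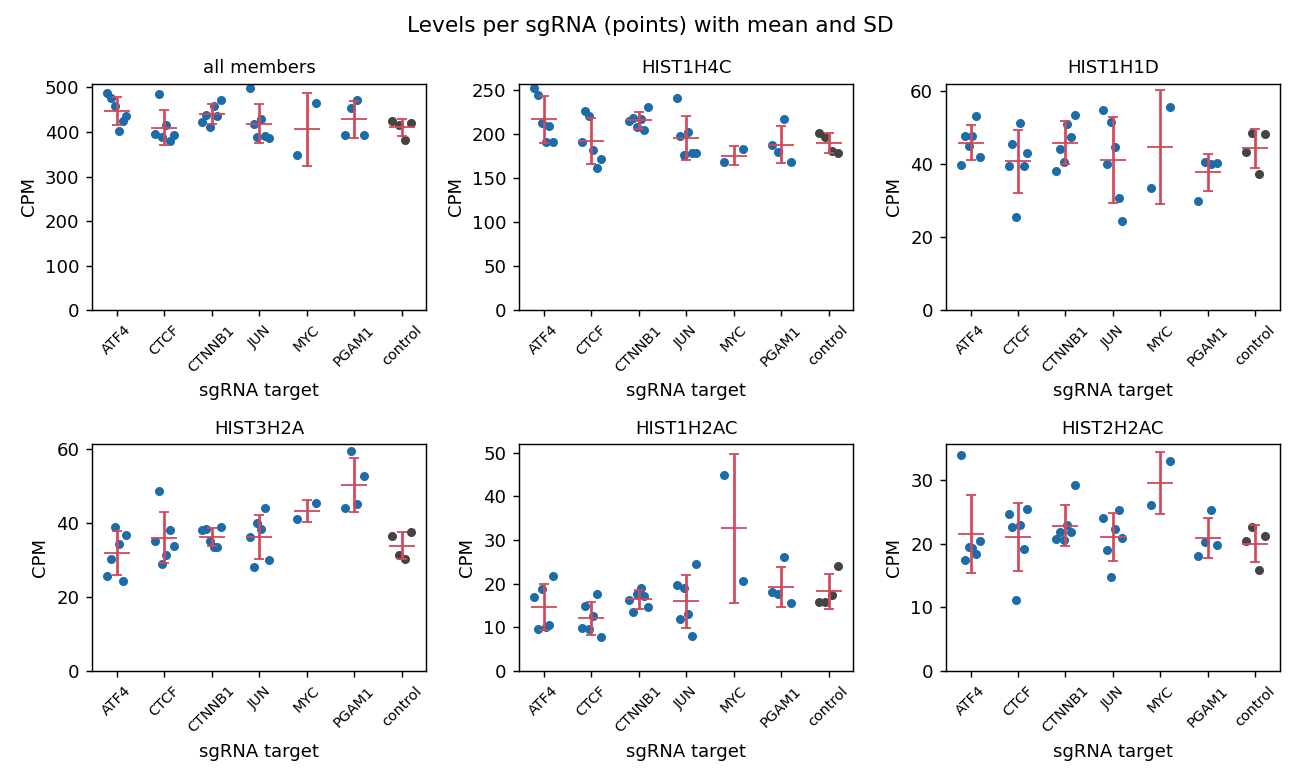
CPM per sgRNA (points) with mean and SD for all members summed and for 5 clustered histone genes, by sgRNA target with the controls at the right. The PGAM1 points of HIST3H2A, from 44.0 to 59.5 CPM, lie above the control points, as do both MYC points of HIST3H2A and of HIST2H2AC and the 6 CTNNB1 points of HIST1H4C; 1 MYC point of HIST1H2AC reaches 44.8 CPM.

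The summed members were higher in the high cells of each target. Their ratio ran from 2.57 (2.28 to 2.91) for PGAM1 to 3.87 (3.64 to 4.11) for CTCF, against 3.91 (3.61 to 4.23) in control cells. Single members were not all clear: HIST1H1B had 0 UMIs in high and 1 in low cells with MYC, and HIST1H2BD was at 0.750 (0.141 to 2.59) with PGAM1. For HIST1H4C the ratio lay between 4.27 for PGAM1 and 5.45 for JUN across the 6 targets, against 5.65 in control cells. HIST1H2AC was lower in the high cells of every target, with ratios of 0.168 for MYC, from 1 UMI in high cells, to 0.458 for CTCF, and 0.339 in control cells. For HIST1H1D the ratio was 2.63 (1.66 to 4.10) with PGAM1, at 56.1 CPM in high cells and 21.3 CPM in low cells, whereas in control cells it was 9.13 (6.97 to 12.1), at 132 CPM in high cells and 14.4 CPM in low cells. The other targets had HIST1H1D ratios of 6.86 to 8.29. A lower ratio with PGAM1 than in control cells was not particular to HIST1H1D. HIST1H1E was at 2.43 (1.23 to 4.65) with PGAM1 and 7.13 (4.82 to 10.6) in control cells. HIST1H1C was at 2.44 (1.60 to 3.67) and 3.47 (2.67 to 4.50), whereas HIST2H2AC was at 3.74 (2.19 to 6.35) and 3.10 (2.09 to 4.57). The HIST1H1D value with PGAM1 rests on 34 UMIs in high cells, and none of these differences was tested over sgRNAs.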

How the data were processed

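Expression was measured in 1 culture of PC9 cells with a 10x Genomics 3-prime library and an sgRNA capture library. The deposited values are raw UMI counts per gene or sgRNA and barcode, which the authors produced with Cell Ranger (version 6.1.2, per the file headers); the submitters' processing notes name the build hg38. Settings of the alignment, and whether doublets had been removed, were not given in the sources used here. No doublet caller was run.

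Kept cells had at least 1000 gene UMIs, 500 genes and at most 20% mitochondrial UMIs, which removed 705 barcodes, 522 of them for the mitochondrial share alone. A cell took its leading sgRNA at 5 or more UMIs and 80% of its sgRNA UMIs. Counts were summed per class or per sgRNA and scaled to gene UMIs (CPM). Intervals are exact 95% counting intervals, and limits for 0 UMIs use 3 counts. UMI sums of 34 sgRNAs, 267726 to 6430143 gene UMIs each, were fitted with edgeR 4.0.16 (TMM scaling, quasi-likelihood test, Benjamini-Hochberg adjustment over all genes tested, threshold 0.05), with DESeq2 1.42.0 as an alternative, in R 4.3.3. The fit was tested on simulated data, with a single spread shared by all genes and changes set only in well-counted genes of the ATF4 sgRNAs. That test does not cover members with few UMIs or the comparison with the MYC sgRNAs. Other alternatives changed the class rule, scaling, filters, sgRNA rule and mitochondrial limit, and left out single sgRNAs.

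Members of at least 5 CPM were described one by one, and any member called in a target comparison would have been named. Old symbols were matched through gene identifiers to RefSeq (GRCh38.p14) for 69 of 71 members. Members and lists were chosen with earlier results of these data known. The promoters, motifs, divergent pairs and bins were chosen after the class values were seen.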

Additional observations from a re-analysis of the deposited data

Results flagged for a closer look

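Among 90 sets of 4 to 6 sgRNAs of 1 target, 1 value stood far from the others in 7. Chance alone flags about 1 set in 20 where sets are independent and their values equally precise. That rate is only a rough guide here, because the sgRNAs differ in depth and some sets contain the genes of others. Most of the 7 flagged values rest on few UMIs. HIST1H1D was at 30.0 CPM with 1 PGAM1 sgRNA (15 UMIs), where the others had 40.1 to 40.6 CPM. HIST2H2AC was at 33.9 CPM with 1 ATF4 sgRNA (46 UMIs), where the next had 20.4 CPM, and at 29.2 CPM with 1 CTNNB1 sgRNA (12 UMIs), where the next had 23.0 CPM. The summed H2B genes were at 36.5 CPM with that same CTNNB1 sgRNA (15 UMIs), where the next had 17.7 CPM, and its summed H3 genes were at 2.43 CPM (1 UMI), where the next had 4.82 CPM. The summed H3 genes were at 1.05 CPM with 1 JUN sgRNA (1 UMI), where the next had 5.33 CPM. All members summed to 485 CPM with 1 CTCF sgRNA (1307 UMIs), where the next had 416 CPM.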

How the results depend on the processing

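The ratio of summed members in high over low cells was 2.17 when CLSPN alone set the classes and 2.69 to 3.91 under the other 8 alternatives, against 3.36. The counts of members at least 1.5-fold higher and lower were 6 and 2 of 8 compared in control sgRNA cells and 42 and 11 of 61 with no UMI minimum, and 9 of 17 compared were higher with at most 10% mitochondrial UMIs, since each of these settings changes how many members can be compared. Of 81 ratios of single members under these alternatives, 74 stayed within 1 SD over sgRNAs, 7 moved further and 0 changed direction. Of 101 counts of members called with a target under the alternatives, 100 were 0; the other was 1, HIST3H2A with PGAM1, when PGAM1 and control sgRNAs were fitted alone, and the cause was not tested. Leaving out each sgRNA in turn gave counts of 0 to 0. Of 893 values of a member with a target, 892 kept their side of the threshold, and 130 values that were not called in either fit changed sign, so the directions of uncalled members are not firm. MYC had 1 sgRNA left under the stricter sgRNA rule and in cells with no CLSPN or RRM2 UMI, and could not be fitted with at most 10% mitochondrial UMIs. No paired analysis was possible because sgRNA numbers of different targets name different sgRNAs and pair no samples. Depth limits 58 members, which the main fit left out as too low. The alternative with no filter on low counts also fitted members this low.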
